A study of Mus musculus with 2 samples.

Results

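The linker histone H1 family was followed in single-nucleus libraries of C2C12, a mouse myoblast cell line. The members were chosen by symbol as the 7 somatic genes H1f0, H1f1, H1f2, H1f3, H1f4, H1f5 and H1f10, out of 55414 genes in the files. H1f1 to H1f5 are the replication-dependent members, and H1f0 and H1f10 are the replication-independent members, which stand as the polyadenylated comparison. All 7 genes passed the minimum of 20 UMIs over both libraries (a UMI, unique molecular identifier, marks 1 captured RNA molecule).

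The study compared 1 in situ polyadenylated library, labelled C2Cnuc_yPAP1, with 1 standard library, labelled C2Cnuc_ctrl1. All nuclei came from C2C12 cells grown to near confluence and were fixed in methanol, and both libraries were made with Chromium v3 chemistry after loading 3300 nuclei for a target of 2000. The in situ polyadenylated nuclei were also incubated for 25 min at 37 °C with ATP and yeast poly(A) polymerase, which adds adenosines to free RNA 3′ ends. After the reaction the in situ polyadenylated nuclei were also washed in nuclei suspension buffer, pelleted and resuspended. The standard nuclei had neither the enzyme nor the incubation, and were counted once wash buffer was added. The effects of these steps, the later wash included, cannot be told apart. The reaction held SUPERase-In, an inhibitor of RNA-cutting enzymes. In tissue sections, the paper reports, this inhibitor failed to stop longer transcripts from degrading in the polyadenylation step. RNA degradation in these nuclei was not tested. With 1 library in each group no difference had a replicate check, no test was run, and every interval below is a 95% interval of counting error only.

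Linker histones bind the DNA that enters and leaves the nucleosome and help to compact chromatin. The replication-dependent H1 genes lie, like most core histone genes, in the large histone cluster, are transcribed mainly in S phase, and give intronless mRNAs that usually end in a stem-loop in place of a poly(A) tail. H1f0, which accumulates in cells that stop dividing, and H1f10 lie outside that cluster and give polyadenylated mRNAs. Standard droplet libraries capture RNA by its poly(A) stretch, so the family holds both classes of 3′ end in 1 set of related genes.

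The 3′ end sequences are shown first because they define the classes. In the annotation (GENCODE M39, GRCm39) all 7 members are single-exon protein-coding genes. A search of the 150 bases after each stop codon for the 16 letters GGNNNTNNTNANNNCC, with a stem of 6 paired bases and a loop of 4, matched 69 of 21665 protein-coding genes (0.318%), 54 of 60 core histone genes and 5 of the 7 linker histone genes. The matches were in H1f1, H1f2, H1f3, H1f4 and H1f5, and H1f0 and H1f10 had none in this window. In the lines below, read 5′ to 3′ on the gene's strand, capitals mark the stem-loop, and the letters in capitals were identical in the 5 genes.
H1f1, chr13:23948370-23948395 (+): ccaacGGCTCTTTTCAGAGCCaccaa
H1f2, chr13:23923490-23923515 (+): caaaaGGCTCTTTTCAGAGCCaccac
H1f3, chr13:23739956-23739981 (+): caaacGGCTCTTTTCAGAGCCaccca
H1f4, chr13:23805760-23805785 (-): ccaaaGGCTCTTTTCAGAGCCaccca
H1f5, chr13:21964002-21964027 (-): ccaaaGGCTCTTTTCAGAGCCaccta

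The annotated transcripts did not all stop at the stem-loop. H1f1 ended 1 base before the last base of the stem-loop, and H1f5 ended at the stop codon. H1f2, H1f4 and H1f3 ran on for 840, 1153 and 4884 annotated bases. Among the replication-dependent genes only H1f2 had the polyadenylation signal AATAAA in the last 50 annotated bases, where H1f0 and H1f10 also had it. These 30-base ends are shown because they hold this signal, given in capitals. Other forms of the signal were not searched, so the ends of the other members were not classed.
H1f2, chr13:23924321-23924350 (+): ttctAATAAAaagcgtttagttttcattca
H1f0, chr15:78914675-78914704 (+): aactttaaAATAAAactggaaaggaaaaaa
H1f10, chr6:87957403-87957432 (-): ctggggcgcAATAAAcggttccaaccttga

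Linker histones have lysine-rich tails, so their coding sequences hold stretches rich in A. The A-richest 20-base coding window held 14 A in H1f5, 12 A in H1f4 and in H1f0, and 11 A in the other members. Over the whole annotated transcript the A-richest window was in H1f3, with 18 A. The coding windows of all members are shown to compare the family, with A in capitals; their part in the levels was not tested.
H1f1, chr13:23948281-23948300 (+): gAAAgtgAcAAAgccAAAgA
H1f2, chr13:23922892-23922911 (+): AAAAAgAAggccgccAAgAA
H1f3, chr13:23739323-23739342 (+): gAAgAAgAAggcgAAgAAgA
H1f4, chr13:23805825-23805844 (-): AAAAccgcAgccAAgAAAAA
H1f5, chr13:21964645-21964664 (-): AAgAAgAAgAcAAcgAAAAA
H1f0, chr15:78913384-78913403 (+): AAgAAAgccAAAAAgcccAA
H1f10, chr6:87958220-87958239 (-): AAgAgAAggAAgAAccgcAA

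The replication-dependent promoters were also alike. In windows from 250 bases before to 50 bases after the start (RefSeq, GRCm38.p6; all 7 members matched by symbol, both strands searched), the H1 box AAACACA, an element of H1 promoters, was in 4 of the 5 replication-dependent genes and in neither H1f0 nor H1f10, against 7.18% of 32851 promoters. CCAAT was in 5 of the 5 and in neither comparison gene, against 37.4% of promoters. TATAAA was in 4 of the 5, H1f2 excepted, and in neither comparison gene, against 13.6%. Matches of different motifs did not overlap, and a match is only a description of the window. The stretch from the H1 box to the CCAAT box is shown for H1f3 and H1f4, the members with the most UMIs in the in situ polyadenylated library, with motifs in capitals; the H1 box began 122 and 115 bases before the start.
H1f3, chr13:23554900-23554989 (+): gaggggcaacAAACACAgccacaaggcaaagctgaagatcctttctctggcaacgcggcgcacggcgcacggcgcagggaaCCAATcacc
H1f4, chr13:23622594-23622683 (-): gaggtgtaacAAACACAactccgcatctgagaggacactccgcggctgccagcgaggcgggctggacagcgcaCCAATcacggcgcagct

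The retained barcodes, those with more than 750 kallisto UMIs, numbered 1335 after in situ polyadenylation and 1123 without it, with medians of 1088 and 996 UMIs, and they shared 0 barcodes (50944 among all barcodes). Protein-coding genes took 29.1% and 55.5% of their kallisto UMIs, and ribosomal RNA took 48.3% and 29.3%. The protein-coding UMIs of the in situ polyadenylated nuclei, 574220 in all, include 97148 of Lars2, whose source was not tested. Ratios per protein-coding UMI below keep Lars2 in their denominator. Levels are given in CPM, the UMIs of a gene scaled to 1000000 UMIs of the retained nuclei, so a difference in CPM moves with the ribosomal RNA share, and each ratio was also set against the median log2 ratio of those protein-coding genes that reached 50 UMIs in both libraries. That median was −1.19 over 2117 genes in the kallisto matrix and −1.92 over 7752 genes in the STAR matrix. The relative ratio is the log2 ratio minus this median. Of the myoblast markers, Vim gave 922 and 1314 UMIs and Des 360 and 636, while Myod1 gave 15 and 13 and Pax7 5 and 4. The myotube regulators Myog, Mymk and Mymx were at 1 to 3 UMIs in either library, but Ttn, a sarcomere gene on the myotube list, gave 2035 and 2328.

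Replication-dependent H1 RNA was more abundant in the in situ polyadenylated library, and the excess came mostly from H1f3. The 5 genes summed to 4264 CPM (interval 4173 to 4356) against 2045 (1970 to 2122), a log2 ratio of 1.06 (1.00 to 1.12) and a relative log2 ratio of 2.25 (2.19 to 2.31). Without H1f3 the log2 ratio of the sum was 0.38 (0.31 to 0.45), and without H1f4 it was 1.90 (1.81 to 1.99). The STAR sums were 836 and 483 CPM, a log2 ratio of 0.79 (0.73 to 0.85) and a relative log2 ratio of 2.71. H1f0 and H1f10 together went the other way, at 91.2 against 223 CPM, a log2 ratio of −1.29 (−1.56 to −1.02), which lay at −0.10 (−0.37 to 0.17) relative to the protein-coding median.

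**Figure D1:**
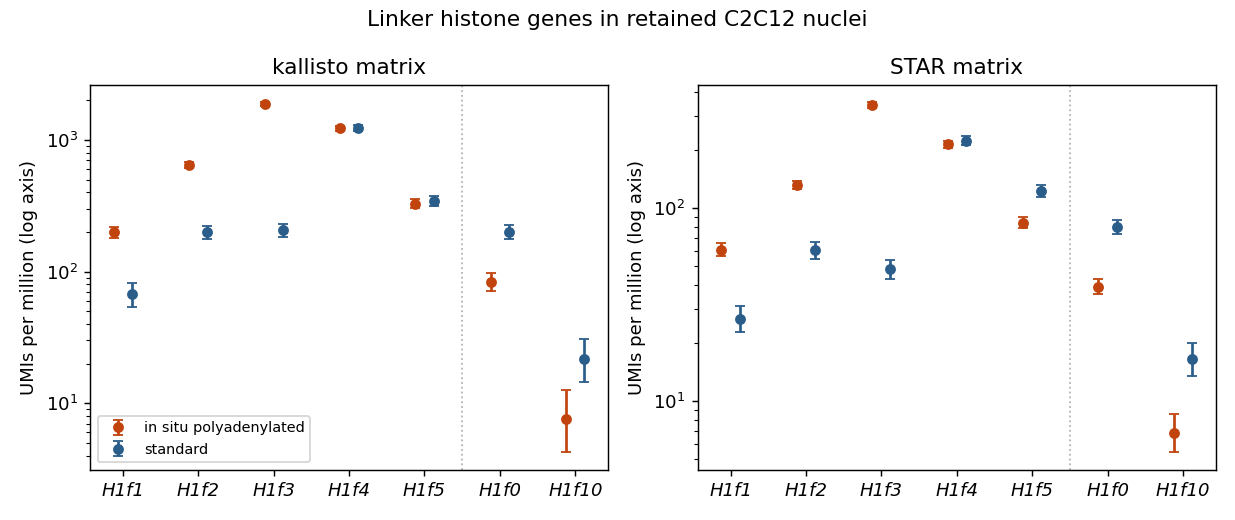
CPM (log axis) of the 7 linker histone genes in retained nuclei of each library, kallisto at left and STAR at right, with points for the level and bars for the 95% counting interval; a dotted line divides replication-dependent from replication-independent genes. H1f3 is farthest apart, at 1868 against 206 in kallisto; H1f4 nearly coincides in both matrices, and H1f0 and H1f10 are lower in the in situ polyadenylated library.

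H1f3 encodes one of the main somatic linker histones (Ensembl ENSMUSG00000052565.8, chr13:23737436-23744860, plus strand, 7425 bases). It gave 3688 UMIs after in situ polyadenylation, or 1868 CPM, and 285 in the standard library, or 206 CPM. The level was 9.06-fold higher (8.03 to 10.3) in the former, with a relative log2 ratio of 4.37 (4.20 to 4.55). STAR gave 3967 and 302 UMIs and a relative log2 ratio of 4.75. H1f3 stood above the other members on this measure in both matrices.

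H1f1 and H1f2 formed a middle group. H1f1, a somatic linker histone gene (ENSMUSG00000049539.4, chr13:23947649-23948389, plus strand, 741 bases), gave 393 and 93 UMIs, or 199 and 67.2 CPM, 2.96-fold higher (2.36 to 3.75) after polyadenylation. H1f2 (ENSMUSG00000036181.3, chr13:23922791-23924350, plus strand, 1560 bases) gave 1273 and 275 UMIs, or 645 and 199 CPM, 3.24-fold higher (2.84 to 3.71). Their relative log2 ratios were 2.76 (2.43 to 3.10) and 2.89 (2.7 to 3.08), with overlapping intervals, so the order of these genes was not resolved. STAR put them at 3.12 and 3.05, again overlapping.

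H1f4 and H1f5 had almost the same kallisto level in both libraries. H1f4, another of the main somatic linker histones (ENSMUSG00000051627.4, chr13:23804612-23806541, minus strand, 1930 bases), gave 2417 and 1700 UMIs, 1224 and 1229 CPM, a log2 ratio of −0.01 (−0.10 to 0.08). H1f5 (ENSMUSG00000058773.3, chr13:21964053-21964795, minus strand, 743 bases) gave 648 and 475 UMIs, 328 and 343 CPM, a log2 ratio of −0.07 (−0.24 to 0.11). Set against the protein-coding median both were higher in the in situ polyadenylated library, at 1.19 (1.10 to 1.28) and 1.13 (0.95 to 1.30). In STAR the log2 ratio of H1f4 was −0.06 (−0.16 to 0.03) and that of H1f5 was −0.54 (−0.68 to −0.40), with relative values of 1.86 and 1.38. The direction for these genes thus depended on the reference. Per protein-coding UMI, Lars2 included, H1f4 had log2 ratios of 0.93 in kallisto and 0.23 in STAR, and H1f5 had 0.87 and −0.25.

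The replication-independent members were lower in CPM after polyadenylation. H1f0 (ENSMUSG00000096210.3, chr15:78912650-78914704, plus strand, 2055 bases) gave 165 and 278 UMIs, or 83.6 and 201 CPM, a log2 ratio of −1.27 (−1.55 to −0.98). H1f10, a divergent linker histone (ENSMUSG00000044927.7 in the files; the annotation holds a later version, chr6:87957403-87958619, minus strand, 1217 bases), gave 15 and 30 UMIs, or 7.60 and 21.7 CPM, a log2 ratio of −1.51 (−2.51 to −0.57). Relative to the protein-coding median these were −0.07 (−0.36 to 0.21) and −0.32 (−1.32 to 0.62), intervals that include 0. In STAR the relative values were above 0, at 0.89 (0.71 to 1.08) and 0.65 (0.21 to 1.09), while the plain log2 ratios stayed below 0, at −1.03 and −1.27.

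Of the 7 members 5, H1f1 to H1f5, were called 2-fold higher, where 3.63% of the 8430 genes with enough kallisto UMIs were called so. No member was 2-fold lower (0 of 7), against 11.9% of genes, and only H1f3 was 8-fold higher, against 1.33%. In STAR the same 5 genes were called 2-fold higher, against 15.9% of 13858 genes, 0 were called lower, against 2.81%, and H1f1, H1f2 and H1f3 were called 8-fold higher, against 4.3%. The median relative log2 ratio of the 5 replication-dependent members was 2.76 in kallisto, beside −0.22 over all genes compared, and 3.05 in STAR, beside 0.08.

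**Figure D2:**
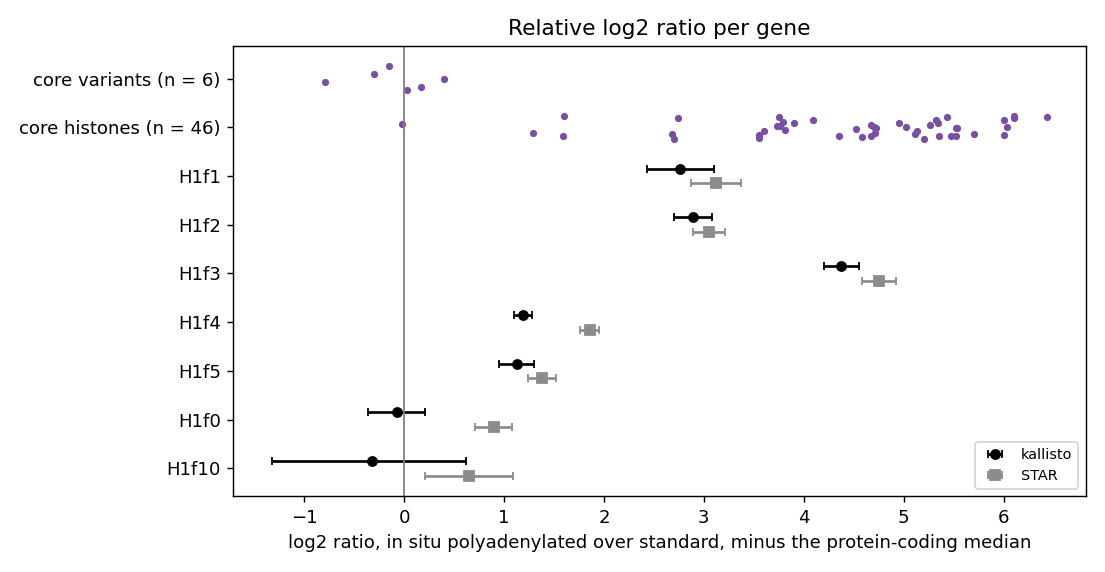
Relative log2 ratio (in situ polyadenylated over standard, minus the protein-coding median; 0 is the median gene) for each linker histone gene in kallisto (black circles) and STAR (grey squares) with 95% counting intervals, and for core histones and core variants in kallisto (purple points, 1 per gene with at least 20 UMIs, no intervals). H1f4 and H1f5 lie between 1 and 2, H1f1 and H1f2 near 3 and H1f3 above 4 in both matrices, while most core histones lie above 3 and the core variants lie near 0. Core genes at 0 in the standard library are drawn at bounds, with the 0 set to 3 UMIs.

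The make-up of the family differed between the libraries. In the standard library H1f4 gave 60.1% (58.3 to 61.9) of the replication-dependent H1 UMIs, H1f5 16.8%, H1f3 10.1% (8.99 to 11.2), H1f2 9.72% and H1f1 3.29%. In the in situ polyadenylated library H1f3 gave 43.8% (42.7 to 44.9), H1f4 28.7% (27.7 to 29.7), H1f2 15.1%, H1f5 7.70% and H1f1 4.67%. The same exchange of the leading gene appeared in STAR, where H1f4 had 46.5% and H1f3 10.0% in the standard library against 25.7% and 41.1%. This comparison does not depend on the ribosomal RNA share. Within a library, H1f3 had 0.168 UMIs for each of H1f4 in the standard nuclei (0.147 to 0.190) and 1.53 in the in situ polyadenylated nuclei (1.45 to 1.61). H1f5 had nearly the same ratio to H1f4 in kallisto, at 0.279 and 0.268, but not in STAR, at 0.546 and 0.392.

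**Figure D3:**
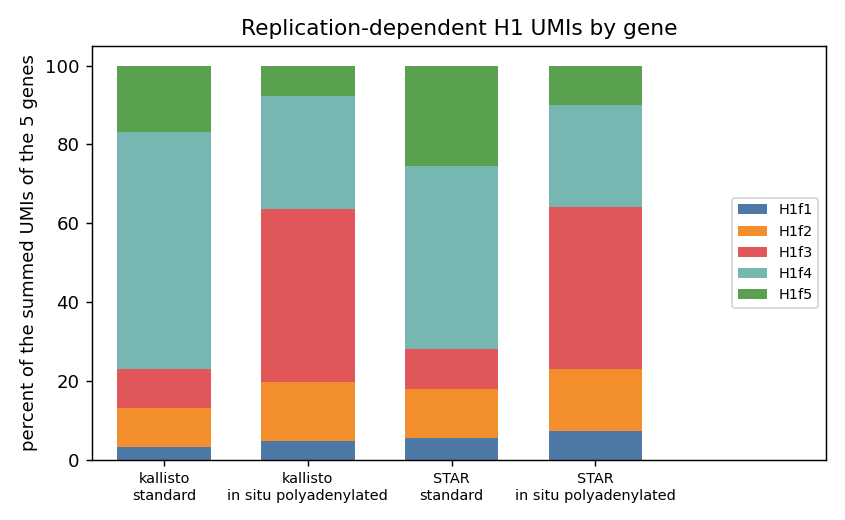
Percent of the summed UMIs of H1f1 to H1f5 that came from each gene (stacked colours), for each matrix and library. H1f4 is the largest part in both standard bars (60.1% and 46.5%) and H1f3 in both in situ polyadenylated bars (43.8% and 41.1%).

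The order of genes within a library depended on the length used. Per kb of coding sequence, the in situ polyadenylated levels in kallisto ran from H1f3 at 2817 CPM through H1f4 at 1863, H1f2 at 1014, H1f5 at 491, H1f1 at 311 and H1f0 at 144 to H1f10 at 10.6, with no neighbours overlapping in their counting intervals. In the standard library the coding-length order was H1f4 at 1871, H1f5 at 513, H1f0 at 345, H1f2 at 313, H1f3 at 311, H1f1 at 105 and H1f10 at 30.3, and H1f0, H1f2 and H1f3 were not separated. Per kb of annotated exon, H1f3 stood at 252 in the in situ polyadenylated library, as its annotated transcript is the longest of the 7. H1f4 stood at 634, H1f5 at 442, H1f2 at 413 and H1f1 at 269. On this measure H1f5 and H1f2 were not separated, and H1f1 and H1f3 were not separated.

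Several members carry limits of counting. As given above, the annotated H1f5 and H1f1 transcripts stop before the last base of the stem-loop, while those of H1f2, H1f3 and H1f4 run past it. The effect of these ends on the counts was not tested. Of the 31-letter words of the H1f4 transcript, 63.6% occur in no other gene, against 96.3% for H1f3, 88.6% for H1f2, 96.1% for H1f5, 99.7% for H1f1 and 100% for H1f0 and H1f10; the median over 60 core histone genes was 39%. H1f4 shares 498 of these words with H2bc6, a core histone gene that overlaps it on the same strand. H2bc6 itself held 68 and 8 UMIs in kallisto and 96 and 86 in STAR. In retained nuclei 38.7% and 14.9% of the H1f4 entries, 34.9% and 38.6% of those of H1f3 and 31.8% and 23.2% of those of H1f2 were not whole numbers, as kallisto divides UMIs between genes. H1f1, H1f0 and H1f10 had none. H1f10 overlaps the lncRNA Gm5577, which held 0 and 9 kallisto UMIs and 89 and 153 STAR UMIs.

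The STAR matrix, which counts reads on the genome with introns, gave nearly the same UMIs as kallisto for H1f3 in both libraries and fewer for H1f4 in the standard library. In the same nuclei H1f3 had 1.08 STAR UMIs for each kallisto UMI after polyadenylation and 1.06 in the standard library, and H1f4 had 1.03 and 0.824. H1f1 had 1.80 and 1.78, H1f5 1.5 and 1.61, H1f2 1.20 and 1.37. H1f0 had 2.75 and 1.80, and H1f10 5.27 and 3.43. Single-exon protein-coding genes had medians of 1.40 and 2.17, multi-exon genes 4.5 and 5.21. After in situ polyadenylation the 5 replication-dependent members lay within the quartiles of the single-exon genes (0.756 and 2.51), and H1f0 and H1f10 lay above them. In the standard library, with quartiles of 1.40 and 3.25, H1f2, H1f3 and H1f4 lay below, and H1f10 above.

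The core histones, which form the nucleosome particle, were also higher in the in situ polyadenylated library. Of 57 replication-dependent core genes in the files 46 had enough UMIs. Of these 45 were 2-fold higher, against 3.63% of all genes, and 0 lower, against 11.9%. Their median relative log2 ratio was 4.71. In kallisto 16 of the 57 core genes held 0 UMIs in the standard library. A 0 was set to 3 UMIs, so the ratios of such genes among the 46 are bounds. In STAR 40 of 42 were higher, against 15.9% of all genes, with a median of 4.28. The exception in kallisto was H2ac24, an H2A gene, at 126 and 205 UMIs (−0.02), and H2ac15, another H2A gene, gave 305 and 11 (5.47). H2ac24 was also an exception in STAR, with H2ac8. The core sum was 1953 against 405 CPM, a log2 ratio of 2.27 (2.14 to 2.40), and in STAR the ratio was 1.29. The sum of the H2A genes alone had 1.24 in kallisto and 0.18 in STAR, the latter below the replication-dependent H1 sum. In counted UMIs replication-dependent H1 thus outnumbered the core sum 2.18-fold in the in situ polyadenylated nuclei and 5.05-fold in the standard nuclei. The STAR values were 2.58 and 3.66. Of the transcript words described above, the median core histone gene had 39% in no other gene, against 63.6% for H1f4, the lowest member. The effect of shared sequence on the core sum was not tested, so the RNA levels themselves were not ranked. In kallisto 39 of the 46 core genes and 1 of the 5 H1 genes were 8-fold higher, where 1.33% of all genes were, and in STAR 36 of 42 and 3 of 5, where 4.3% were. The lists were not compared by a test.

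Other genes tied to histones had kallisto medians near the protein-coding median. Among all genes compared in kallisto, 3.63% were called higher and 11.9% lower. The replication-independent core variants had 6 genes compared, 0 called either way and a median relative log2 ratio of −0.06; H3f3b, a replacement histone H3 gene, gave 177 and 277 UMIs (0.03) and Macroh2a1, a variant of H2A, 148 and 180 (0.40). Of the transcription and 3′ end processing factors of histone genes 8 were compared and 0 called, with a median of −0.33; Sympk, a scaffold of the cleavage complex, gave 243 and 356 (0.13), and Casp8ap2, which acts in histone gene expression, 71 and 207 (−0.87). Of the chaperones and chromatin proteins that interact with H1 13 were compared, 0 were higher and 1 lower, where 11.9% of all genes were lower, with a median of −0.35. The lower gene was Cbx3 at 17 and 60 (−1.14), named after its value was seen, which STAR did not call (−0.15). Ptma, which binds H1, gave 256 and 324 (0.34; 0.97 in STAR). Hmga2 gave 263 and 309 (0.45), but 2359 and 7411 in STAR, where its relative log2 ratio was below 0, at −0.62 (−0.69 to −0.55). In STAR 2 of 15 in that list, Hmga1 and Hmgb1, were called higher, where 15.9% of all genes were. Lsm10 was called lower among 10 processing factors in STAR, where 2.81% of all genes were. The germline linker histones held 1 UMI after polyadenylation and 0 without it, so no ratio was formed.

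An H1 UMI was found in most retained barcodes of the in situ polyadenylated library. With each nucleus thinned to 750 UMIs, 87.7% (85.8 to 89.4) of 1335 nuclei had a UMI of a replication-dependent H1 gene, against 66.5% (63.7 to 69.3) of 1120 standard nuclei, after 3 standard nuclei too shallow to thin were left out. Unthinned, the shares were 92.4% and 76%. For H1f3 the thinned shares were 66.1% and 13.2%, for H1f2 34.5% and 11.5%, and for H1f1 14.2% and 4.82%. For H1f4 they were 54.1% (51.4 to 56.8) and 49.5% (46.5 to 52.4), which overlap, and for H1f5 20.9% and 21.1%. H1f0 was seen in 6.14% and 14.1%, and H1f10 in 0.674% and 1.34%. No cell type without these genes exists in a single cell line. Barcodes with 1 to 100 UMIs held a replication-dependent H1 UMI in 5.10% and 1.64%, but at a median depth of 1 UMI, so these shares cannot serve as background for nuclei of 750 UMIs. Their level in CPM, given with the low-UMI barcodes, was above that of the nuclei after in situ polyadenylation (6344 against 4264), so detection there does not show that the UMI came from the nucleus.

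**Figure D4:**
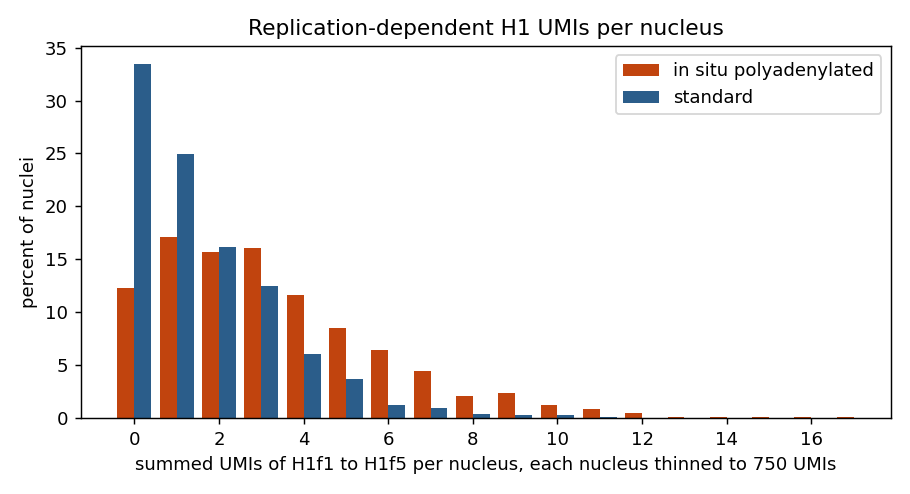
Percent of nuclei (vertical axis) by their summed H1f1 to H1f5 UMIs (horizontal axis) after each nucleus was thinned to 750 UMIs. The standard nuclei peak at 0 (33.5%), while the in situ polyadenylated nuclei spread from 0 to 17 with a median of 3.

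Per thinned nucleus the median was 3 replication-dependent H1 UMIs (quartiles 1 and 5, highest 17) after in situ polyadenylation and 1 (0 and 3, highest 11) in standard nuclei. Of the in situ polyadenylated nuclei 357 held 1 of the 5 genes, 407 held 2, 283 held 3, 106 held 4, 18 held all 5 and 164 none. Of the standard nuclei 454 held 1, 217 held 2, 64 held 3, 9 held 4, 1 held all 5 and 375 none. Most members were seen in a larger share of the nuclei that held another replication-dependent member. In the in situ polyadenylated library H1f3 was seen in 70.8% (67.9 to 73.6) of nuclei with a UMI of another replication-dependent member and in 52.9% (47.5 to 58.2) of those without. H1f4 was seen in 58.0% and 38.1%, H1f2 in 36.9% and 21.2%, and H1f5 in 23.0% and 7.35%. For H1f0 the shares were 6.40% (5.07 to 7.96) and 4.27% (1.73 to 8.60), which overlap.

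Nuclei with more replication-dependent H1 UMIs also held more core histone and G2/M RNA, in CPM over their other UMIs. After in situ polyadenylation the core histones were at 797, 997, 1785 and 3087 CPM in nuclei with 0, 1 to 2, 3 to 4 and 5 or more H1 UMIs. The summed G2/M genes, among them Mki67 and Cenpf, were at 732, 722, 1046 and 1242, the lowest classes not being separated. The S phase genes, among them Hells and Mcm7, were at 220, 278, 192 and 266, with no order. In the standard nuclei the core histones were at 249, 334, 431 and 646, and the G2/M genes at 2610, 3011, 3664 and 4067. The ribosomal RNA class moved with these standard classes, at 278062, 306172, 331335 and 351582 CPM, and other protein-coding genes were at 560843, 546749, 528099 and 518574. In the in situ polyadenylated classes the ribosomal RNA class was at 509927, 513033, 511025 and 505226. Those nuclei were divided instead by their UMIs of the gene ENSMUSG00002075551, which the paper calls incompletely annotated. The H1 sum was at 4699 CPM (4567 to 4835) in 828 nuclei under 15 of these UMIs. It was at 5505 (5328 to 5687) in 507 nuclei with 15 or more, both over UMIs without that gene. Both values were above the 4264 CPM of all retained in situ polyadenylated nuclei, where that gene was counted in the total. The CPM of that library are thus lower with this gene counted. Its UMIs also counted toward the limit for retaining a barcode, and their effect there was not tested. The part of this gene, of the ribosomal RNA class and of other protein-coding genes in the differences was not tested. H1f0 was at 65, 64.2, 116 and 115 in the in situ polyadenylated nuclei, with wide overlapping intervals. In the standard nuclei it was at 153, 232, 251 and 279, where the intervals also overlap. Over the libraries as wholes 14 G2/M genes were compared in kallisto, 0 higher and 2 lower, a share near that of all genes (11.9%), with a median relative log2 ratio of −0.44. The 2 were Ccnb1 (−1.58) and Aurkb (−1.20), named after their values were seen, and STAR called neither (−0.33 and 0.02). Of 15 S phase genes 0 were called in kallisto (−0.27), where 3.63% of all genes were higher and 11.9% lower. In STAR Gins2 was called higher of 16, where 15.9% of all genes were. The 5 myoblast genes compared were not called in kallisto (−0.14), nor were 7 in STAR. Of the 4 myotube genes Myh3 was called higher (median 0.49), where 3.63% of all genes were, and in STAR 3 of 9 were, Myh3, Acta1 and Ckm, where 15.9% of all genes were.

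**Figure D5:**
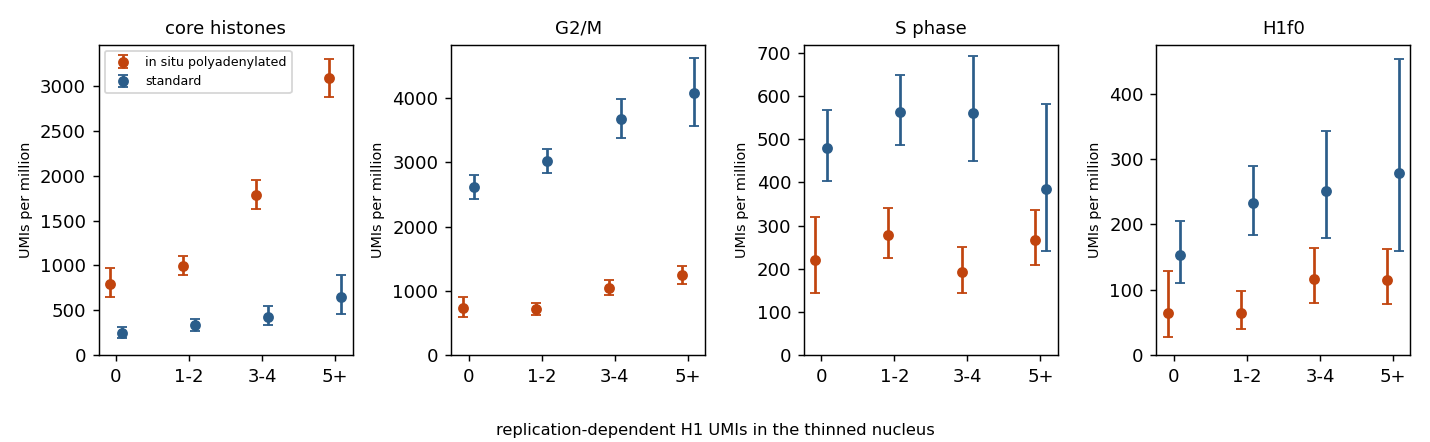
CPM over the other UMIs (vertical axes, from 0) for core histones, G2/M genes, S phase genes and H1f0, in nuclei grouped by their replication-dependent H1 UMIs after thinning (horizontal axes), with 95% counting intervals. Core histones run from 797 to 3087 in the in situ polyadenylated nuclei and G2/M genes from 2610 to 4067 in the standard nuclei, while the S phase genes show no order.

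The genes most like the summed replication-dependent H1 level over the 1335 in situ polyadenylated nuclei, by Pearson's r on log counts thinned to 1 depth among 1024 genes, were Lars2 (0.22), H2ac15 (0.16), H2ax (0.15), Gm47283 (0.13) and H3c3 (0.12). Lars2 is annotated as the mitochondrial leucyl-tRNA synthetase gene, and H2ac15, H2ax and H3c3 are histone genes. Lars2 held 97148 UMIs in these nuclei, against 305 for H2ac15 and 1031 for H2ax. Whether the Lars2 UMIs came from its mRNA was not tested. In the 1120 standard nuclei, among 1875 genes, the list was Rn18s-rs5, of the ribosomal RNA class (0.24), Mir6236 (0.17), Mki67 (0.15), Smc5 (0.14) and Paxbp1 (0.13). Every such value is weak, comes from nuclei of 1 library, and is a description only. The summed core histones gave 0.33 in the in situ polyadenylated nuclei and 0.10 in the standard nuclei.

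The level in low-UMI barcodes, set against nuclei, depended on the library and on the depth of the barcodes. In barcodes with 1 to 100 UMIs the replication-dependent H1 sum was 6344 CPM in the in situ polyadenylated library, a log2 ratio of 0.57 (0.53 to 0.61) over its nuclei. In the standard library it was 1646, a log2 ratio of −0.31 (−0.38 to −0.24). Per protein-coding UMI these ratios were 0.41 (0.37 to 0.45) and −0.37 (−0.44 to −0.30). In CPM H1f3 had 0.60 and −0.45 and H1f4 0.34 and −0.66, while H1f5 had 0.78 and 0.27 and H1f0 0.79 and −0.32. Barcodes with more UMIs, though still below the retained nuclei, were at 5029 CPM above 100 and up to 500 UMIs and at 4957 (4795 to 5124) above 500 and up to 750 after in situ polyadenylation. In the standard library these were at 1990 and 2243 (2153 to 2335), the latter above the standard nuclei. By depth quartile of the nuclei, from the fewest to the most UMIs, the sum was at 4791, 4493, 4285 and 4026 CPM after in situ polyadenylation and at 2466, 2223, 2030 and 1814 CPM in standard nuclei. Each quartile of the former was above each quartile of the latter, and in both libraries the deeper nuclei had the lower values. The part that RNA free in the droplets takes in the levels of the nuclei was not tested.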

How the data were processed

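The authors trimmed reads with cutadapt 3.4, mapped them to GRCm39 with STAR 2.7.10a and to transcripts with kallisto 0.48.0 and bustools 0.41.0, per the submitters' processing notes, and deposited 1 matrix of each kind per library. The deposited kallisto matrix holds estimated counts (UMIs per barcode and gene; 1.10% and 2.65% of entries are not whole), and the deposited STAR matrix holds whole counts.

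Barcodes with more than 750 kallisto UMIs and under 5% mitochondrial UMIs were kept (the mitochondrial limit removed 0), and the same barcodes were read in STAR, which held 1328 of 1335 and 1123 of 1123. UMIs were summed per library and scaled to 1000000 (CPM), with exact Poisson, exact conditional (ratios) and Clopper-Pearson (shares) 95% intervals. Retained nuclei held 1974403 and 1382984 kallisto UMIs and 11545281 and 6237950 STAR UMIs. A gene with at least 20 UMIs over both libraries was called when its relative ratio passed 2-fold or 8-fold. A count at 0 was set to 3 UMIs, and the ratio is then a bound. No linker histone member of the 7 was at 0. No doublet caller was run; an alternative dropped the 5% of nuclei highest in UMIs. Nuclei were thinned without replacement with a fixed seed. Ratio code was checked on simulated data. Analyses used Python 3.11.15, numpy 2.4.6, scipy 1.17.1 and pandas 2.3.3. Coordinates and lengths come from GENCODE M39, which may differ from the annotation counted; 54749 of 55414 gene IDs matched it.

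The members and gene lists were chosen with earlier results of these data known. All members were named; of each list the 2 genes with the most UMIs were named, and the 5 genes with the highest correlation with the H1 sum.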

Additional observations from a re-analysis of the deposited data

How the results depend on the processing

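No paired analysis was possible because there was only 1 library per group. Over 9 alternatives the log2 ratio of the replication-dependent H1 sum stayed between 0.79 and 2.16, and over 6 its relative ratio stayed between 2.18 and 2.71, all above 0. Both counts include the alternative without the mitochondrial limit, which repeated the main analysis because that limit removed 0 barcodes. The plain and relative values were 0.79 and 2.71 in STAR, 1.20 and 2.48 with more than 1500 UMIs per nucleus, and 1.13 and 2.33 when all barcodes of the STAR matrix were used. The relative value was 2.18 after dropping the 5% of nuclei highest in UMIs. The plain value was 1.99 per protein-coding UMI, Lars2 included, and 2.16 without ribosomal RNA, miRNA and mitochondrial classes. Without thinning, 92.4% and 76% of nuclei held a replication-dependent H1 UMI. In STAR the H1f3 share was 41.1% after polyadenylation, and the H1f4 shares were 25.7% and 46.5%. Low-UMI barcodes set over nuclei gave log2 ratios of 0.70 and −0.59 at 1 to 10 UMIs and 0.24 and −0.039 above 100 and up to 500, for the in situ polyadenylated and standard libraries. With minimums of 5 and 50 UMIs per gene, 775 and 154 genes were 2-fold higher against 306, and 2324 and 343 lower against 1006, as fewer genes pass a higher minimum. H1f4 was above 0 on the plain scale in 5 of 9 alternatives and H1f5 in 3 of 9; relative to the protein-coding median both stayed above 0 in 6 of 6. H1f0 and H1f10 were above 0 in 3 of 6 on the relative scale and below 0 in 9 of 9 on the plain scale. The cause of these changes was not tested. Depth limits H1f10, at 15 and 30 UMIs, most.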
